A study of Mus musculus with 10 samples.

Results

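H3K4me3 was examined across the genes of oocyte transcription factors, namely *Figla*, *Nobox*, *Lhx8*, *Sohlh1*, *Sohlh2*, *Taf4b*, *Tbpl2* and *Foxo3*. Every 5 kb window that the table assigns to 1 of these 8 genes was taken, which gave 69 of 544879 windows. The libraries came from ULI-nChIP-seq, an ultra-low-input chromatin immunoprecipitation with micrococcal nuclease, on fully grown germinal vesicle (GV) oocytes of 21-day-old C57BL6 females. The *Setd1b* cKO oocytes were *Setd1b* floxed/floxed and Gdf9-Cre positive (n = 3 libraries). The *Setd1b* WT oocytes carried the same floxed alleles without the Cre (n = 3), so the floxed allele is shared by both groups. *Gdf9*-Cre acts in oocytes from an early stage of follicle formation. The study holds it likely that H3K4me3 laid down before that stage remains in the cKO. Each library pooled about 200 oocytes, and 2 input libraries per genotype were sequenced. The methods of the study allow heterozygous deleted females with Cre among the WT, and the labels give the WT as Cre negative.

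Values are enrichment-normalized RPKM on a linear scale. This scale sets the 40th percentile of windows to 1.23 and the 99th to 6.77 in every library, and has no true zero, so differences and not folds are given. The libraries held 10856015 to 32775874 reads in windows. The median window of the genome had 11 to 47 reads. At the start window of *Setd1b* itself, the targeted gene, H3K4me3 was 7.11 ± 0.861 (SD, n = 3) in WT and 4.36 ± 0.385 (n = 3) in cKO oocytes (limma, adjusted p = 0.0332).

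These factors act in the primordial follicle and the growing oocyte, several of them in a hierarchy. SOHLH1 and SOHLH2 are germ-cell basic helix-loop-helix proteins upstream of LHX8, NOBOX and FIGLA. FIGLA, which binds E-boxes with an E protein partner, switches on the zona pellucida genes, and NOBOX and LHX8 are homeodomain proteins that activate oocyte growth genes. TAF4B and TBPL2 belong to the core transcription machinery of the oocyte, where TBPL2 takes the place of TBP. FOXO3 is a forkhead factor that holds primordial follicles dormant until AKT signalling expels it from the nucleus. H3K4me3 marks active promoters in most cells, while growing oocytes also carry broad H3K4me3 domains away from promoters. SETD1B is among the methyltransferases that deposit the mark.

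The start windows of these genes differed widely in sequence, and the stretch just upstream of the start is shown for 3 of them, with CpG dinucleotides in capitals. *Foxo3* is shown because it held the only windows of the 8 genes that passed the main limma test. *Sohlh1* is shown because its start window had the lowest H3K4me3, and *Tbpl2* because its start window had the fewest CpGs. All are RefSeq promoter sequence on GRCm38.p6, minus strand, written 5′ to 3′ and ending at the base before the annotated GENCODE M21 start. They cover chr10:42276756-42276945 (*Foxo3*), chr2:25847249-25847498 (*Sohlh1*) and chr2:24096596-24096845 (*Tbpl2*).
Foxo3: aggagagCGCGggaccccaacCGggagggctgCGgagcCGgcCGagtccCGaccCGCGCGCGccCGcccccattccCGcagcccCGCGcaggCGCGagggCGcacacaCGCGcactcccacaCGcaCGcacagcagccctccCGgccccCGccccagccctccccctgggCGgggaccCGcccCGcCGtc
Sohlh1: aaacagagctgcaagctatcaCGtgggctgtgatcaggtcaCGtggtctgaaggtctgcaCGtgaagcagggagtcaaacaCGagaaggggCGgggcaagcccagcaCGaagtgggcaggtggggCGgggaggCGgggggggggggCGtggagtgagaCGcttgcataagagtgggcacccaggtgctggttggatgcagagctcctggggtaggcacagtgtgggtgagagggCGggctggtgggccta
Tbpl2: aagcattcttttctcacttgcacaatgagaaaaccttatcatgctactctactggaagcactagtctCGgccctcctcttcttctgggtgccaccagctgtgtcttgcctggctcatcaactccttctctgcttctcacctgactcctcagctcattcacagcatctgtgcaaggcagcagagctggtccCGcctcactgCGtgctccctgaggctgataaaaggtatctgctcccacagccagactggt
The 190 bases of *Foxo3* held 28 CpGs, against 11 and 3 in the 250 bases of *Sohlh1* and *Tbpl2*. Promoter sequence was matched for 7 of the 8 genes. Over the 250 bases before the RefSeq start, the CpG count was 31 for *Foxo3*, 14 for *Figla* and *Sohlh2*, 11 for *Nobox* and *Sohlh1*, 4 for *Lhx8* and 3 for *Tbpl2*, and the median over 27025 promoters was 6.

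Motifs were searched on both strands of the same 250 bases. The E-box CANNTG occurred 5 times in *Sohlh1*, 4 times in *Tbpl2*, 2 times each in *Figla* and *Nobox* and 1 time in *Sohlh2*, and was not found in *Lhx8* or *Foxo3*. Of all promoters 66.0% held it. CACGTG, 1 of its palindromic forms, which is also counted among the E-boxes, was found 3 times in *Sohlh1* and in none of the other 6 promoters. Of all promoters 6.05% held CACGTG. The letters TAATTA (4.90% of all promoters), TAATTG (7.34%), TATAAA (13.0%) and GTAAACA (3.09%), forms of the NOBOX element, the TATA box and the forkhead site, were absent from the 7 windows. For *Figla* the RefSeq start lies 1020 bases inside the GENCODE transcript, so its 250 bases are not the upstream sequence of the longer transcript.

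In WT oocytes all 8 start windows carried H3K4me3, and no start window passed the test for a difference in cKO oocytes. The WT mean was highest at *Foxo3*, 6.88 ± 1.57 (SD, n = 3), and lowest at *Sohlh1*, 3.72 ± 0.554, against a median of 1.46 over all windows and 3.72 over the windows with a protein-coding start. *Sohlh2* (5.83 ± 0.319), *Tbpl2* (5.72 ± 0.800), *Nobox* (5.65 ± 0.621), *Lhx8* (5.58 ± 1.27), *Taf4b* (5.54 ± 0.409) and *Figla* (5.25 ± 1.38) lay between them. The libraries of every neighbouring pair in this order overlapped. In cKO oocytes *Foxo3* stood at rank 5, with *Sohlh2* first at 6.06 ± 0.818 and *Sohlh1* again last at 3.79 ± 0.533, and there too every neighbouring pair overlapped. *Foxo3* ranked above 94.97% of protein-coding start windows by WT level and above 99.9% by CpG count, with 357 CpGs in its 5 kb. *Tbpl2* ranked above 84.3% by level with only 20 CpGs, which ranked above 6.48% by CpG count. The start windows of 7 members lay above the median coding start by WT level, and *Sohlh1* lay at percentile 49.99.

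**Figure D1:**
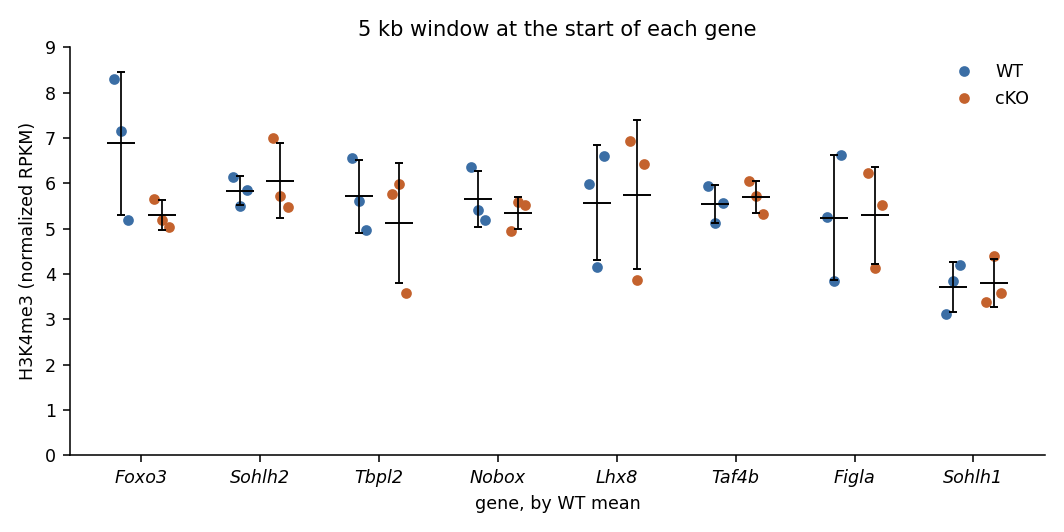
H3K4me3 in normalized RPKM in the 5 kb window that holds the start of each gene, ordered by WT mean. Points are libraries (3 WT, 3 cKO), and the bars are the mean and 1 SD. The genotypes overlap at every gene, and *Foxo3* has the largest drop, from a WT mean of 6.88 to a cKO mean of 5.30.

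*Foxo3* had the largest difference at its start. The WT libraries (replicates 1, 2 and 4) read 8.29, 7.16 and 5.19, and the cKO libraries (replicates 1, 3 and 4) 5.67, 5.19 and 5.04. The lowest WT library thus lay within the cKO range. The difference was -1.58 (SE 0.661), with an adjusted p of 0.295 in limma over all windows and an unadjusted p of 0.0374, the only start window of the 8 with an unadjusted p under 0.05. The difference was -0.88 without WT replicate 1 and -2.43 without WT replicate 4. Averaged over the windows that overlap the start ± 2000 bp, which adds the next window inside the gene, the difference was -2.46 (limma over the starts of all genes, adjusted p = 0.0359). Over the same span *Nobox* went from -0.30 to -0.86 (unadjusted p = 0.0330, adjusted p = 0.204).

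The other 7 start windows differed by -0.60 to 0.23, with adjusted p-values of 0.641 to 0.980. *Tbpl2* read 6.56, 5.61 and 4.98 in WT and 5.78, 5.98 and 3.59 in cKO libraries, a difference of -0.60 (SE 0.643). *Nobox* read 6.36, 5.41 and 5.19 in WT and 4.94, 5.59 and 5.52 in cKO, a difference of -0.30 (SE 0.408). At both genes the genotypes overlapped. *Tbpl2* (ENSMUSG00000061809) starts at 24096595 on chromosome 2 and *Nobox* (ENSMUSG00000029736) at 43309554 on chromosome 6, both on the minus strand (GRCm38, GENCODE M21).

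Among the basic helix-loop-helix factors, *Figla* read 5.26, 3.86 and 6.62 in WT and 6.22, 4.13 and 5.52 in cKO libraries (difference 0.05, SE 0.706). *Sohlh1* read 3.11, 3.86 and 4.20 in WT and 3.39, 4.40 and 3.59 in cKO (difference 0.07, SE 0.421), and *Sohlh2* 6.15, 5.51 and 5.84 against 6.996, 5.72 and 5.47 (difference 0.23, SE 0.448). The LIM homeodomain gene *Lhx8* read 5.99, 4.15 and 6.59 in WT and 6.94, 3.87 and 6.44 in cKO (difference 0.17, SE 0.817). At *Figla* and *Lhx8* the same libraries, WT replicate 2 and cKO replicate 3, were the lowest of their group. *Taf4b* read 5.94, 5.12 and 5.58 in WT and 6.05, 5.72 and 5.33 in cKO (difference 0.16, SE 0.373). On the same annotation *Figla* (ENSMUSG00000030001) starts at 86016171 on the plus strand of chromosome 6, *Sohlh1* (ENSMUSG00000059625) at 25847248 on the minus strand of chromosome 2, *Sohlh2* (ENSMUSG00000027794) at 55182028 on the plus strand of chromosome 3 and *Lhx8* (ENSMUSG00000096225) at 154330659 on the minus strand of chromosome 3. The sign of these small differences depended on the scaling. The cKO mean was above the WT mean at 5 of 8 start windows on the deposited scale, at 4 of 8 after quantile normalization or division by the median, and at none with edgeR on the reads, where the median over coding starts was -0.06 on the log2 scale against 0.09 normalized RPKM on the deposited scale. No start window was called by edgeR or DESeq2 either.

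Over all 69 windows, 1 was called as a gain and 1 as a loss (limma, adjusted p under 0.05), and both lay in *Foxo3*. Over the genome 0.563% of windows were called as gains and 0.454% as losses. An unadjusted p under 0.05 was found in 6 of the 69 windows, against 14.9% of all windows. The libraries of the genotypes did not overlap in 4 windows where every cKO library was above every WT library (9.88% of all windows) and in 3 where every cKO library was below (9.95%). On average H3K4me3 was higher in cKO than in WT oocytes in 50 of the 69 windows (72.5%), against 43.7% of all windows, with a median difference of 0.16 against -0.10. Windows of 1 gene lie side by side and are not independent, and most of the 50 lay in the 2 longest genes. The cKO mean was higher in 19 of 25 windows of *Taf4b*, 15 of 20 of *Foxo3* and 6 of 6 of *Sohlh2*. It was higher in 3 of 6 windows of *Lhx8*, 2 of 6 of *Tbpl2*, 1 of 2 of *Nobox* and 2 of 2 each of *Figla* and *Sohlh1*. With edgeR the counts came closer together, 42 of 69 windows (60.9%) against 55.1%.

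**Figure D2:**
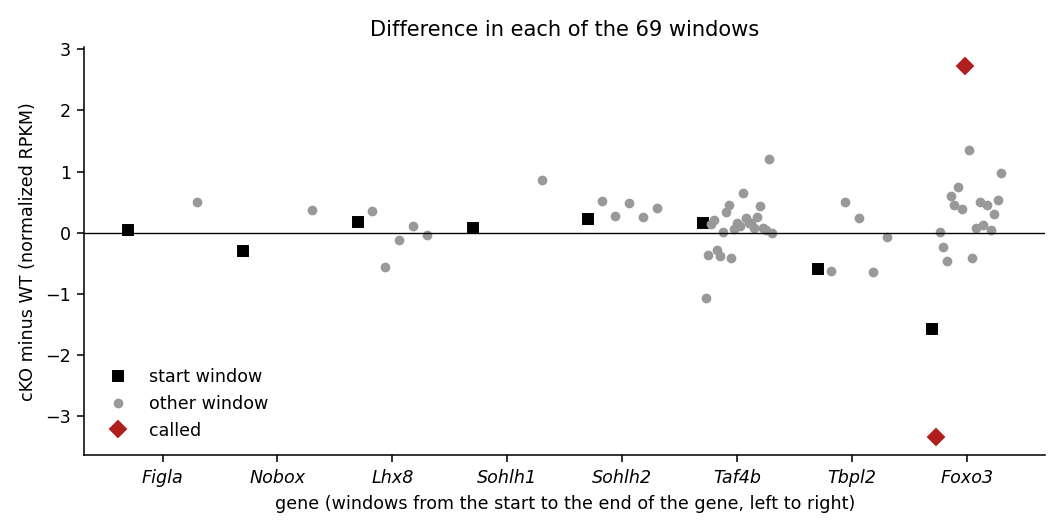
Difference between the cKO and WT means (normalized RPKM) in each of the 69 windows, by gene, with windows ordered from the start to the end of the gene. Squares are start windows, circles other windows and diamonds the 2 windows called by limma, a loss of -3.34 and a gain of 2.73, both in *Foxo3*.

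The loss lay inside *Foxo3*, in the window next to the start window. *Foxo3* (ENSMUSG00000048756) runs on the minus strand of chromosome 10 from 42276755 to 42181841 (GRCm38, GENCODE M21) over 20 windows. The window from 42270001 to 42275000 is mostly intron, with 185 exonic bases at its start-facing end, and held 96 CpGs. H3K4me3 there was 7.61, 5.61 and 6.62 in the WT libraries and 3.11, 3.74 and 2.96 in the cKO libraries. The genotypes did not overlap, with the 3 cKO libraries lower. The means were 6.61 ± 1.00 in WT and 3.27 ± 0.410 in cKO (SD, n = 3 each), a difference of -3.34 (SE 0.503, limma adjusted p = 0.0251). The values rested on 58 to 211 reads in WT and 36 to 76 reads in cKO libraries, with a counting error of 0.359 to 0.792 normalized RPKM per library (1 SD). Input values in this window, reads scaled to library size, were 2.41 and 1.54 in WT and 1.29 and 2.69 in cKO libraries, so they overlapped.

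The gain lay about 44 kb downstream of the start, in an intron. The window from 42230001 to 42235000 holds no annotated exon of the gene and held 76 CpGs. It read 3.27, 2.59 and 3.30 in WT and 6.05, 5.19 and 6.10 in cKO libraries. The genotypes did not overlap, with the 3 cKO libraries higher. The means were 3.05 ± 0.3999 and 5.78 ± 0.512 (SD, n = 3 each), a difference of 2.73 (SE 0.394, limma adjusted p = 0.0226), on 27 to 100 reads in WT and 47 to 141 reads in cKO libraries. Input values were 2.36 and 1.66 in WT and 2.73 and 2.65 in cKO libraries, higher in both cKO inputs, and the part of this in the difference was not tested.

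The windows on each side of the gain behaved differently. The next window toward the end of the gene, from 42225001, read 1.39, 2.10 and 1.14 in WT and 2.95, 2.68 and 3.06 in cKO libraries, which did not overlap. Its difference of 1.35 did not pass in limma (adjusted p = 0.115), while edgeR on the recovered reads called it, with a log2 fold change of 1.18 and an adjusted p of 0.0261, where 1.07% of windows were gains. The next window toward the start, from 42235001, read 3.27, 3.86 and 3.51 in WT and 3.06, 4.00 and 4.75 in cKO libraries, which overlapped. The window from 42255001 holds an alternative *Foxo3* transcript start at 42258366 and had means of 1.23 in WT and 0.76 in cKO, below the median windows of 1.46 and 1.54. The 3 cKO libraries there lay below the WT libraries without overlap, and the difference of -0.47 was not called (adjusted p = 0.491).

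**Figure D3:**
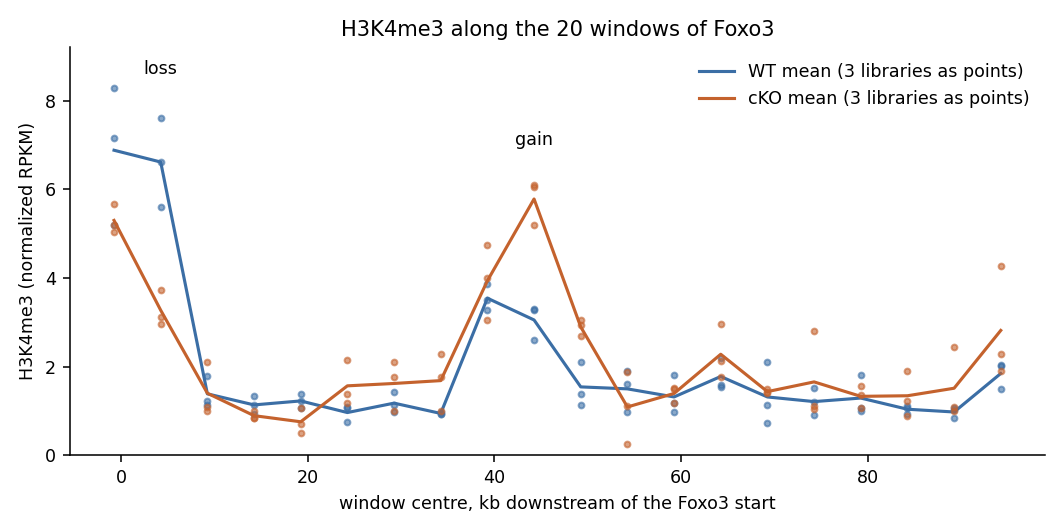
H3K4me3 (normalized RPKM) along the 20 windows of *Foxo3* against the distance of the window centre from the start, in kb. Points are libraries, lines the means of 3 WT and 3 cKO libraries. WT exceeds cKO in the first 2 windows, where the second fell from 6.61 to 3.27, and cKO exceeds WT around 44 kb, where the level rose from 3.05 to 5.78.

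Leaving out a library kept the differences in *Foxo3* at -3.85 to -2.84 for the loss and 2.50 to 3.02 for the gain. Both windows remained called without cKO replicate 1 or without cKO replicate 3, and neither was called without cKO replicate 4 (adjusted p 0.101 for the loss and 0.0900 for the gain), WT replicate 1 (0.0844 and 0.0829), WT replicate 2 (0.0872 and 0.104) or WT replicate 4 (0.0918 and 0.0808). Leaving out any 1 of these last 4 libraries left 0 gains and 0 to 1 losses called in the whole genome. edgeR on the reads gave the loss a log2 fold change of -1.36 (adjusted p = 0.158) and the gain 0.80 (adjusted p = 0.467). The first window upstream of the start read 1.53 in WT and 1.81 in cKO (means), and the remaining 15 windows inside the gene differed by -0.47 to 0.97.

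The start windows most like that of *Foxo3* over the 6 libraries, by Euclidean distance, were those of *Bmi1* (distance 1.05), which encodes a Polycomb protein, the lincRNA *Gm36899* (1.09) and *Natd1* (1.12). Because they were chosen by these same values, similar differences are built in, and none of the 3 was called. *Bmi1* had means of 6.84 in WT and 5.07 in cKO (adjusted p = 0.276), and the others had adjusted p-values of 0.164 and 0.232.

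Away from *Foxo3*, no window passed. *Taf4b* (ENSMUSG00000054321, 25 windows from 14783245 to 14900359 on the plus strand of chromosome 18) is the longest of the genes. Its first window inside the gene read 3.48, 3.76 and 2.94 in WT and 1.95, 1.89 and 3.11 in cKO libraries, a difference of -1.08 (adjusted p = 0.272), and the highest cKO library lay above the lowest WT library. Its window 114 kb from the start, the last but 1 of the gene, holds 2037 exonic bases and read 1.02, 1.23 and 0.96 in WT and 1.23, 2.81 and 2.77 in cKO libraries, a difference of 1.20 (adjusted p = 0.247). There cKO replicate 1 stood with the WT libraries, and without it the difference was 1.72 and was called (adjusted p = 0.0366). These were the only windows outside *Foxo3* with an unadjusted p under 0.05.

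*Sohlh2* carried H3K4me3 beyond its start window. Its second window read 5.41, 4.24 and 5.995 in WT and 5.998, 4.27 and 6.92 in cKO libraries (difference 0.51, adjusted p = 0.709), and its 6 windows all had a higher cKO mean, by 0.23 to 0.51, with none called. The second window of *Lhx8*, which holds more transcript starts, had means of 3.93 in WT and 4.28 in cKO. The second window of *Sohlh1* overlapped between genotypes, 2.75, 3.17 and 4.80 in WT against 3.39, 5.98 and 3.93 in cKO libraries (difference 0.86, adjusted p = 0.532). The 5 windows of *Tbpl2* behind its start window had means of 0.96 to 2.10 in WT and 0.40 to 1.47 in cKO libraries. The second windows of *Figla* and *Nobox* differed by 0.51 and 0.37.

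The windows next to the genes, 3 on each side, carry no member name and were looked at for context. Of these 48 windows 1 was called, as a gain (0.563% of all windows), and 13 had an unadjusted p under 0.05 (14.9% of all windows). The called window is the first window past the end of *Figla* (chromosome 6, 86025001 to 86030000), which read 1.70, 1.52 and 1.62 in WT and 3.11, 3.61 and 3.25 in cKO libraries, a difference of 1.71 (adjusted p = 0.0459). The next windows in that direction differed by 1.74 (adjusted p = 0.200) and 1.89 (adjusted p = 0.0695), also without overlap, and were not called. The WT domain at *Figla* extended upstream, where the 3 windows before the start window had WT means of 4.85 to 5.10 and cKO means of 3.86 to 4.74. The window before the start window of *Nobox* read 5.68, 4.73 and 5.19 in WT and 3.89, 3.61 and 3.83 in cKO libraries, which did not overlap, with an adjusted p of 0.0955 for the difference of -1.42. The first window past the end of *Sohlh1* read 6.93, 6.48 and 7.70 in WT and 5.44, 5.06 and 5.95 in cKO libraries, also without overlap (difference -1.55, adjusted p = 0.111). The 3 windows upstream of its start differed by 1.15, 1.23 and 1.82 and were not called (adjusted p 0.167 to 0.480), and the libraries overlapped only in the middle one of the 3. The run of windows around the *Sohlh1* start with a mean of at least 3 was 20 kb long in WT and 75 kb in cKO, a description with no test, in which 2 of the upstream cKO means, 3.13 and 3.30, lay just above that limit. The same run went from 10 to 15 kb at *Sohlh2* and from 10 to 5 kb at *Taf4b*, and had the same length in both genotypes at the other 5 genes.

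Oocyte genes that lie downstream of these factors were examined at their own start windows. Of 15 such targets 12 had a lower cKO mean and 1 was called, as a loss; 45.8% of the windows with a protein-coding start had a lower cKO mean, 0.75% were called as losses and 1.18% as gains. The median difference was -1.39, against 0.09 over coding starts and 0.06 over the 8 members. All 8 granulosa markers given further on had a higher cKO mean on this scale, with a median difference of 0.75. The called gene was *Rfpl4*, an oocyte ring finger gene (window 5115001 to 5120000 of chromosome 7), which read 8.40, 9.30 and 7.52 in WT and 5.22, 3.47 and 4.31 in cKO libraries (difference -4.07, SE 0.551, limma adjusted p = 0.0196). It was not called by edgeR (adjusted p = 0.381). Its difference was -4.51 to -3.62 without single libraries, and it was not called without cKO replicate 4 or any WT library (adjusted p 0.0556 to 0.0938), which left 0 to 1 windows called in the whole genome. The count of called targets depended on the fit. An intensity trend in limma called 5 of the 15 as losses and 1 as a gain (2.04% and 1.96% of coding starts), and log2 values with pseudocount 1 called none.

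The genotypes did not overlap in 8 of the 15 targets with the cKO libraries lower (8.99% of coding starts), and *Rfpl4* was among them. *Nlrp14*, of the maternal NLRP family, had means of 7.22 ± 1.74 in WT and 3.97 ± 0.833 in cKO (adjusted p = 0.0773). *Zp2*, a zona pellucida gene under FIGLA, had means of 6.78 and 4.12 (adjusted p = 0.0826), and *Bmp15*, an oocyte growth factor, 7.79 and 5.32 (adjusted p = 0.0710). None of these 3 passed the test. Of the 3 targets with a higher cKO mean, *Kit* and *Npm2* differed by 0.24 and 0.49 and *Gdf9* by 3.24. The start window of *Gdf9* also holds the start of *Uqcrq* and read 7.30, 7.94 and 7.13 in WT and 9.99, 12.6 and 9.52 in cKO libraries (adjusted p = 0.0598). *Gdf9* supplies the promoter of the Cre transgene, which the labels give to the cKO and not to the WT. Input values in this window were 2.17 and 1.85 in WT and 3.42 and 2.997 in cKO libraries (reads per window scaled to library size), higher in both cKO inputs, and the part of this in the H3K4me3 difference was not tested. With *Gdf9* left out, 12 of 14 targets had a lower cKO mean. With edgeR 13 of 15 targets had a negative log2 fold change and none was called.

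Signalling to FOXO3 was followed from KIT and its ligand through PI3K, PDPK1 and AKT to TSC and the FOXO3 targets *Cdkn1b* and *Bcl2l11*. Of the 13 start windows given here 9 had a higher cKO mean and none was called by limma (5 with an unadjusted p under 0.05, as in 24.3% of coding starts) or by edgeR, and the median difference was 0.39. The largest increase was at *Cdkn1b*, a cell cycle inhibitor, with means of 3.27 in WT and 4.87 in cKO (difference 1.601, SE 0.406, limma adjusted p = 0.0940). The largest decrease was at *Pik3ca*, the catalytic subunit of PI3K, with means of 6.09 and 4.82 (difference -1.27, SE 0.515, adjusted p = 0.279). The direction over this list depended on the scale, and with edgeR 7 of 13 were lower.

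None of the 15 partners and paralogs was called, such as TBP, TFIIA subunits, E proteins and the other FOXO genes; 7 had an unadjusted p under 0.05 in limma (24.3% of coding starts) and 9 had a lower cKO mean. edgeR called 1 as a gain (0.622% of coding starts), *Tbpl1*, a paralog of *Tbpl2* and TBP, with a log2 fold change of 1.65 (edgeR adjusted p = 0.0212). Its level was low, with means of 0.94 in WT, below the median window of 1.46, and 2.15 in cKO (difference 1.21, limma adjusted p = 0.177). The largest increase was at *Foxo6*, a paralog of *Foxo3*, with means of 3.77 in WT and 5.49 in cKO (adjusted p = 0.102), and the largest decrease at *Tcf4*, an E protein, with means of 4.65 and 2.91 (adjusted p = 0.111).

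**Figure D4:**
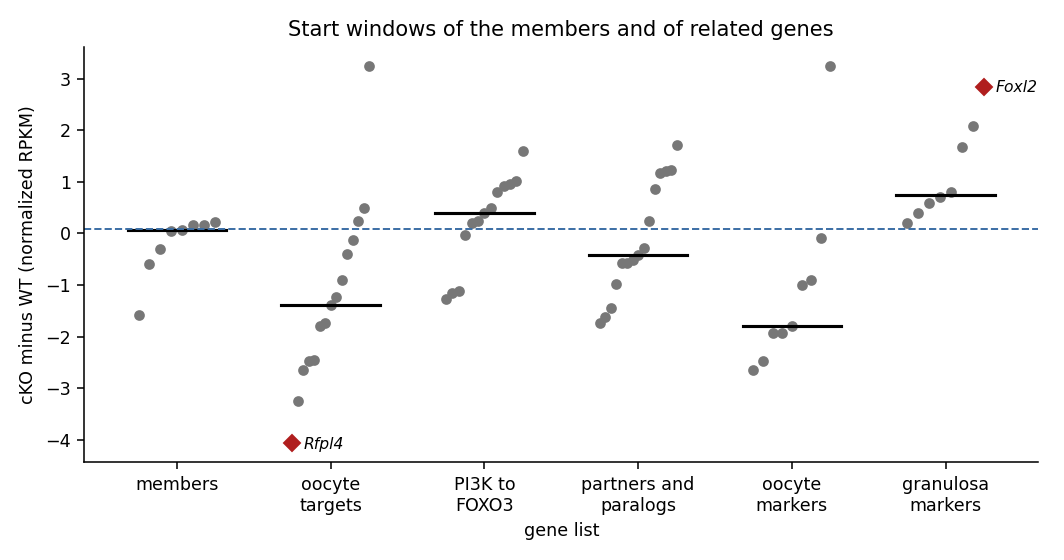
Difference between the cKO and WT means (normalized RPKM) at the start window of each gene in 6 gene lists. Points are genes, diamonds those called by limma (named), black lines the list medians and the dashed line the median of 0.09 over protein-coding starts. The median is 0.06 for the members and -1.39 for the oocyte targets.

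Markers of the cells that the pools could hold were read at the same windows. Of 9 oocyte markers 8 had a lower cKO mean and none was called (7 with an unadjusted p under 0.05 in limma, none by edgeR), where 24.3% of coding starts had such a p. In 5 of the 9 the cKO libraries lay below the WT libraries without overlap (8.99% of coding starts). Only *Gdf9* had a higher cKO mean, 10.7 against 7.46 in WT, in the window described above with higher input values in cKO. The summed level of the 9 markers, with *Gdf9* included, was 51.9 to 62.3 in WT and 46.3 to 50.0 in cKO libraries. The markers thus carry the mark in every library, and 5 of the 9 also stand in the list of targets. All 8 granulosa markers had a higher cKO mean on the deposited scale, and 1 of them, *Kitl*, was lower with edgeR (log2 fold change -0.07), with a summed level of 29.3 to 31.5 in WT and 38.6 to 41.5 in cKO libraries. Of these *Foxl2*, the granulosa forkhead factor, was called as a gain, from 4.21 ± 0.337 to 7.06 ± 1.12 (adjusted p = 0.0415), in limma but not in edgeR (adjusted p = 0.744). Its difference was 2.199 to 3.185 without single libraries, and it was not called without cKO replicate 3 (adjusted p = 0.0511), or without cKO replicate 4 or any WT library (0.102 to 0.149), which left 0 to 1 windows called in the whole genome. In 5 of the 8, namely *Foxl2*, *Inha*, *Inhba*, *Wt1* and *Cyp19a1*, the cKO libraries lay above the WT libraries without overlap (15.2% of coding starts). *Inha*, whose window also holds the start of *Obsl1*, had means of 3.43 in WT and 5.52 in cKO (adjusted p = 0.0810), and *Fshr* had 0.87 and 1.27, below the median window in both groups. The granulosa start windows had a median of 162.5 CpGs, against 77 for the oocyte markers and 88 for coding starts. The study reports a high CpG content in regions that gain H3K4me3 in cKO oocytes. The part of CpG content in the marker differences was not tested. The part of these marker differences in the values of the 8 genes and of their targets was not tested either. The 3 theca markers, led by *Cyp17a1* with means of 3.20 and 6.53 (adjusted p = 0.0577), and the 3 blood and endothelial markers had no call; *Cdh5* differed by 0.51 and *Pecam1* by -0.62.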

How the data were processed

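H3K4me3 was analysed in 3 *Setd1b* cKO and 3 WT libraries of GV oocytes, with 2 inputs per genotype. A further library of each genotype, which the study excluded as poorly enriched, is not analysed here. Per the labels and the submitters' processing notes, reads were trimmed with Trim Galore 0.4.2 and mapped with Bowtie2 2.2.9 to GRCm38. Quantification by the authors was in SeqMonk over 5 kb windows. For H3K4me3 the authors deposited a score, the enrichment-normalized RPKM, and for input they deposited a signal, reads per window scaled to library size. Read counts were recovered from the spacing of the values, as every value lay a whole number of steps (within 0.1 read) above that of an empty window, which was -1.02 to 0.810. Duplicates cannot be told apart, so counting errors cover counting only.

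Windows were tested with limma 3.58.1 (R 4.3.3) on the deposited values, two-sided, without trend or block, with Benjamini-Hochberg adjustment over all 544879 windows. The test was checked on simulated data. It called 0.563% of windows as gains and 0.454% as losses, together less than the share of the genome that the study reports as changed. With an intensity trend limma called more windows, 1.57% as gains and 2.01% as losses. Alternatives were edgeR 4.0.16 and DESeq2 1.42.0 on reads, log2 values, scalings, filters and leaving out each library. With 3 libraries against 3, an exact permutation test cannot go below 0.1. Whether the libraries came from separate animals is stated only as biological replicates. A start window holds the GENCODE M21 start. The named genes were the 8 members, the 3 genes nearest to the member with the largest start difference, every called gene of each list, otherwise its extremes, and *Setd1b*; *Nlrp14*, *Zp2*, *Bmp15*, *Gdf9*, *Kit*, *Npm2*, *Kitl*, *Tbpl1*, *Fshr*, *Inha*, *Inhba*, *Wt1* and *Cyp19a1* were named after their values were seen. The members and lists were chosen with earlier results of these data known. A gene of the signalling list is not reported here.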

Additional observations from a re-analysis of the deposited data

How the results depend on the processing

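The counts of 1 gain and 1 loss among the 69 windows were kept under an intensity trend (1.57% of all windows gains and 2.01% losses), division by the median (0.345% and 0.252%) and a minimum mean of 1 (0.979% and 0.851%), and in each case the called windows were the 2 *Foxo3* windows. Both counts were 0 on log2 values (pseudocount 1 or 0.1) and after quantile normalization, where 0 and 1 windows were called in the whole genome, with DESeq2 (0.126% of windows gains and 0.119% losses) and at an adjusted p of 0.01 (0 gains and 0 losses in the genome). With edgeR at 10 reads (1.07% gains and 1.22% losses) or at 1 read (0.961% and 1.38%) there were 0 losses and 1 gain, in the window beside the limma gain. Leaving out 1 library gave 0 to 2 gains (0 to 1.71% of all windows) and 0 to 1 losses (0 to 1.59%), with 2 gains without cKO replicate 1, where 1.71% were gains. The gained *Foxo3* window (2.728 normalized RPKM) kept its size after quantile normalization (2.730) but was not called (adjusted p = 0.0811). In log2 units, which cannot be set against that scale, it gave 0.745 with pseudocount 1, 0.904 with 0.1, 0.800 and 0.767 with edgeR and 0.776 with DESeq2, with no call. It was 2.498 to 3.024 without single libraries. The lost window (-3.342) gave -3.376 after quantile normalization (adjusted p = 0.107) and -0.830, -0.990, -1.360, -1.394 and -1.405 in the same log2 units, with no call, and -3.846 to -2.843 without single libraries. The cause was not tested. Neither window changed sign under these settings.

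The replicate numbers 1 and 4 occur in both genotypes and the labels do not say that they mark a shared batch. Deviations from the group mean correlated at 0.319 for number 1 and 0.0190 for number 4 over all windows. With the replicate number as a block, 2 gains and 1 loss were called (2.51% and 3.63% of all windows), the added gain being the *Foxo3* window from 42225001. The start windows of *Figla* (-0.0706), *Sohlh1* (-0.163) and *Taf4b* (-0.0657) changed sign without a call. *Tbpl2* gave -1.086 (limma unadjusted p = 0.0223, adjusted p = 0.189), *Nobox* -0.538 (adjusted p = 0.644) and *Foxo3* -1.387 (adjusted p = 0.0552). *Lhx8* gave 0.397 and *Sohlh2* 0.238, also without a call.

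No start window was called under any setting but that of *Foxo3* over the start ± 2000 bp (-2.46). The signs of the small start differences turned in these cases. With edgeR at 10 reads, edgeR at 1 read and DESeq2, in this order, *Figla* gave -0.136, -0.169 and -0.158, *Lhx8* -0.105, -0.139 and -0.129, *Sohlh1* -0.168, -0.200 and -0.197, *Sohlh2* -0.117, -0.151 and -0.142 and *Taf4b* -0.180, -0.213 and -0.209 on the log2 scale. *Figla* was -0.0520 after quantile normalization and *Sohlh1* -0.00736 after division by the median. Over the start ± 2000 bp *Figla* was -0.157 and *Taf4b* -0.460, and *Nobox* -0.861 against -0.301. Without single libraries the difference ranged from -0.650 to 0.735 for *Figla*, -0.534 to 0.0514 for *Nobox*, -0.543 to 1.112 for *Lhx8*, -0.232 to 0.310 for *Sohlh1*, -0.239 to 0.523 for *Sohlh2*, -0.0566 to 0.352 for *Taf4b* and -1.032 to 0.163 for *Tbpl2*. Counts of calls in the gene lists were 0 on log2 values with pseudocount 1, as over all windows. An intensity trend called 5 losses and 1 gain among the oocyte targets and 2 losses and 1 gain among the oocyte markers, and 1 gain each among the partners and paralogs, the granulosa markers and the theca markers, against 2.04% and 1.96% of coding starts. The settings for *Rfpl4* and *Foxl2* were chosen after seeing the data. Precision was limited by 3 libraries per group and by depth, with 11 to 47 reads in the median window.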
